A study of Mus musculus with 24 samples.

Results

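The genes that push cells toward mitochondrial death within the BCL2 family were followed in mouse blood through 9 genes: the effectors *Bax* and *Bak1*, and the BH3-only genes *Bbc3* (PUMA), *Pmaip1* (NOXA), *Bid*, *Bcl2l11* (BIM), *Bmf*, *Bad* and *Bik*. They were chosen by gene symbol, as the pro-death branch of the family, with earlier results of these data known. They are 9 of the 29742 gene names on the array, with 11 probes among them. Of the 9 genes, 8 were among the 17462 genes with enough signal and variation to be tested. The study asks how age alters the response of blood RNA to x-rays. All mice were male C57BL/6J. There were 4 groups of 6 mice, with 1 array per mouse: young mice of 2 months and old mice of 21 months, each unirradiated or given 4 Gy of x-rays, with blood taken by cardiac puncture after 24 h.

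The effectors BAX and BAK assemble into pores in the outer mitochondrial membrane, which lets cytochrome c out and starts the caspases. BH3-only proteins act upstream of them, by occupying survival members such as BCL2, BCL-XL and MCL1 or by switching the effectors on directly. *Bax*, *Bbc3* and *Pmaip1* are well-known targets of the transcription factor p53, and lymphocytes are among the cells that die most readily after ionizing radiation.

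Signals are given as log2 of the background-subtracted spot intensity minus the median of the same array, so that a difference of 1 is a 2-fold difference. A gene was called higher or lower where limma gave an unadjusted p under 0.005 and a Benjamini-Hochberg adjusted p under 0.05 over the 17462 genes. All samples are bulk blood, so fewer cells of a type and less RNA per cell cannot be told apart. Old irradiated replicates 4 and 6 stood apart before any comparison was made. Their median signals, 8.66 and 8.84, were the lowest of the 24 arrays (highest 44.8). Over all genes, which are not independent replicates, they correlated at 0.98 with each other, at 0.857 to 0.902 with the other old irradiated arrays, and those other arrays correlated at 0.937 to 0.99 among themselves. Members, gene pairs and most lists in old irradiated mice are therefore also given without them. There were 5 pairs of arrays within a group whose differences had a spread under 2 times that of repeat spots, the closest being old unirradiated replicates 1 and 6 at 1.46 times. None fell below the spread of repeat spots. Since repeat spots lie on the same array, this cannot tell whether the arrays of such a pair are independent. All arrays were counted separately, and averaging these pairs was run as an alternative.

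The arrays lay on 6 slides of 4. Each slide held mice of 1 age, and in each age 1 slide held 2 unirradiated and 2 irradiated mice, so that a value within a slide exists for irradiation. Slides of young and old mice were scanned on 2 different days, and age therefore cannot be told apart from slide and scan day. The choice of scaling also moved the genes as a whole. With each array's median set to 0, the median change over all genes was -0.20 for irradiation in young mice, -0.25 for irradiation in old mice, 0.63 for age in unirradiated mice and 0.20 for age in irradiated mice. With each array's 75th percentile aligned instead, these medians were -0.20, 0.28, -0.02 and -0.03. Changes of the members are therefore also read against the median of all genes in the same comparison.

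A deposited table of values already on a log2 scale, for 17190 probes, served as another scaling. It was not centred by gene, its columns each correlated best with their own array (24 of 24, lowest r 0.995 over 17166 shared probes), and how it was normalized is not stated with it, though the methods describe setting medians before probes were filtered. Its column medians for replicates 1 to 6 were 6.37, 6.28, 6.73, 6.54, 6.16 and 6.05 in young unirradiated mice and 6.44, 6.66, 6.35, 5.88, 6.26 and 5.77 in young irradiated mice. In old mice they were 6.00, 6.26, 6.04, 6.17, 6.19 and 6.10 without irradiation and 6.34, 5.98, 6.35, 6.38, 6.41 and 6.25 after it. Over the probes in the table the columns thus have no common median, which does not show how they were normalized before probes were filtered, and the old irradiated replicates 4 and 6, lowest in raw signal, were not lowest there.

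*Bax* (probe A_55_P2137406) encodes an effector that moves from the cytosol to the mitochondrial membrane when activated. Its lowest, median and highest signals were 4.88, 5.03 and 5.46 in young unirradiated mice and 6.23, 6.50 and 6.74 in young irradiated mice. In old mice they were 5.72, 6.07 and 6.41 without irradiation and 6.38, 6.67 and 7.11 after it. The young unirradiated mice lay below every other mouse, and the old groups met only at old irradiated replicate 4, whose value was under that of old unirradiated replicate 6. *Bak1* (A_55_P2013113) encodes the effector that already sits on the membrane. Its signals were 4.48, 5.05 and 5.55 in young unirradiated, 5.76, 5.94 and 6.32 in young irradiated, 5.58, 5.85 and 6.68 in old unirradiated and 5.31, 5.76 and 6.43 in old irradiated mice. For *Bak1* the young unirradiated mice lay below the young irradiated and the old unirradiated mice, while the other 3 groups overlapped throughout.

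*Bbc3* (A_51_P248122) encodes PUMA, which can bind all the main survival members. Its lowest, median and highest signals were 4.39, 4.67 and 4.98 in young unirradiated and 5.66, 6.12 and 6.55 in young irradiated mice. Old unirradiated mice had 5.10, 5.46 and 6.07 and old irradiated mice 4.93, 6.78 and 7.44. The old irradiated mice fell into separate sets: replicates 4 and 6, at 4.93 and 4.94, lay below every old unirradiated mouse, and the other 4, at 6.60 and above, lay over every mouse of the other groups. *Pmaip1* (A_51_P477121) encodes NOXA, which binds MCL1. Its signals were 2.93, 3.39 and 4.21 in young unirradiated, 4.14, 4.39 and 4.72 in young irradiated, 4.25, 4.60 and 4.88 in old unirradiated and 3.11, 4.83 and 5.52 in old irradiated mice. The young groups met only at young unirradiated replicate 2, the highest of its group, and old irradiated replicates 4 and 6, at 3.11 and 3.23, were again the lowest of theirs.

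*Bid* (A_52_P574653), whose protein is made active by cleavage, had lowest, median and highest signals of 4.08, 4.38 and 4.78 in young unirradiated and 4.27, 5.44 and 5.95 in young irradiated mice. The old groups had 5.18, 5.41 and 5.51 without irradiation and 4.78, 5.90 and 6.72 after it. Only young irradiated replicate 4, at 4.27, reached into the young unirradiated range, and old irradiated replicates 4 and 6, at 4.78 and 5.13, lay below every old unirradiated mouse while the other 4 lay above. *Bmf* (A_55_P2029106), whose protein is held on the cytoskeleton of healthy cells, ran the other way. Its signals were 3.85, 4.39 and 4.53 in young unirradiated, 2.48, 2.72 and 3.42 in young irradiated, 4.34, 4.93 and 5.46 in old unirradiated and 0.61, 3.02 and 4.39 in old irradiated mice. Every young irradiated mouse lay below every young unirradiated mouse, and old irradiated replicates 4 and 6, at 0.61 and 0.71, were the lowest, while replicate 1, at 4.39, lay within the old unirradiated range.

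*Bad* (A_55_P1962234), which is governed by phosphorylation, had lowest, median and highest signals of 4.66, 4.68 and 4.98 in young unirradiated and 4.92, 5.18 and 5.69 in young irradiated mice. The old groups had 5.65, 5.71 and 5.81 without irradiation and 4.49, 5.89 and 6.05 after it. The old unirradiated mice lay close together above the young unirradiated mice, and old irradiated replicates 4 and 6, at 4.50 and 4.49, lay below them all. *Bad* has another probe, A_65_P16603, with signals of 1.24, 1.41 and 1.81 in young unirradiated and 1.18, 1.70 and 1.81 in old unirradiated mice. On that probe age in unirradiated mice changed the mean by 0.12 (exact p = 0.379), against 0.99 on the probe used, so the probes of *Bad* disagree and its values rest on 1 of them. *Bcl2l11* (A_51_P484880) was faint: it was well above background on 3, 2, 5 and 4 of 6 arrays in the young unirradiated, young irradiated, old unirradiated and old irradiated groups. Its signals were -2.48, -1.09 and -0.34 in young unirradiated, -1.35, -1.11 and -0.63 in young irradiated, -1.20, 0.13 and 1.28 in old unirradiated and -2.49, -0.44 and 0.71 in old irradiated mice, with overlap between all groups. The other probe of *Bcl2l11*, A_52_P348214, was well above background on 3 of 24 arrays and was not used. *Bik* (A_51_P117794) was well above background on 3 of 24 arrays and was not tested.

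**Figure D1:**
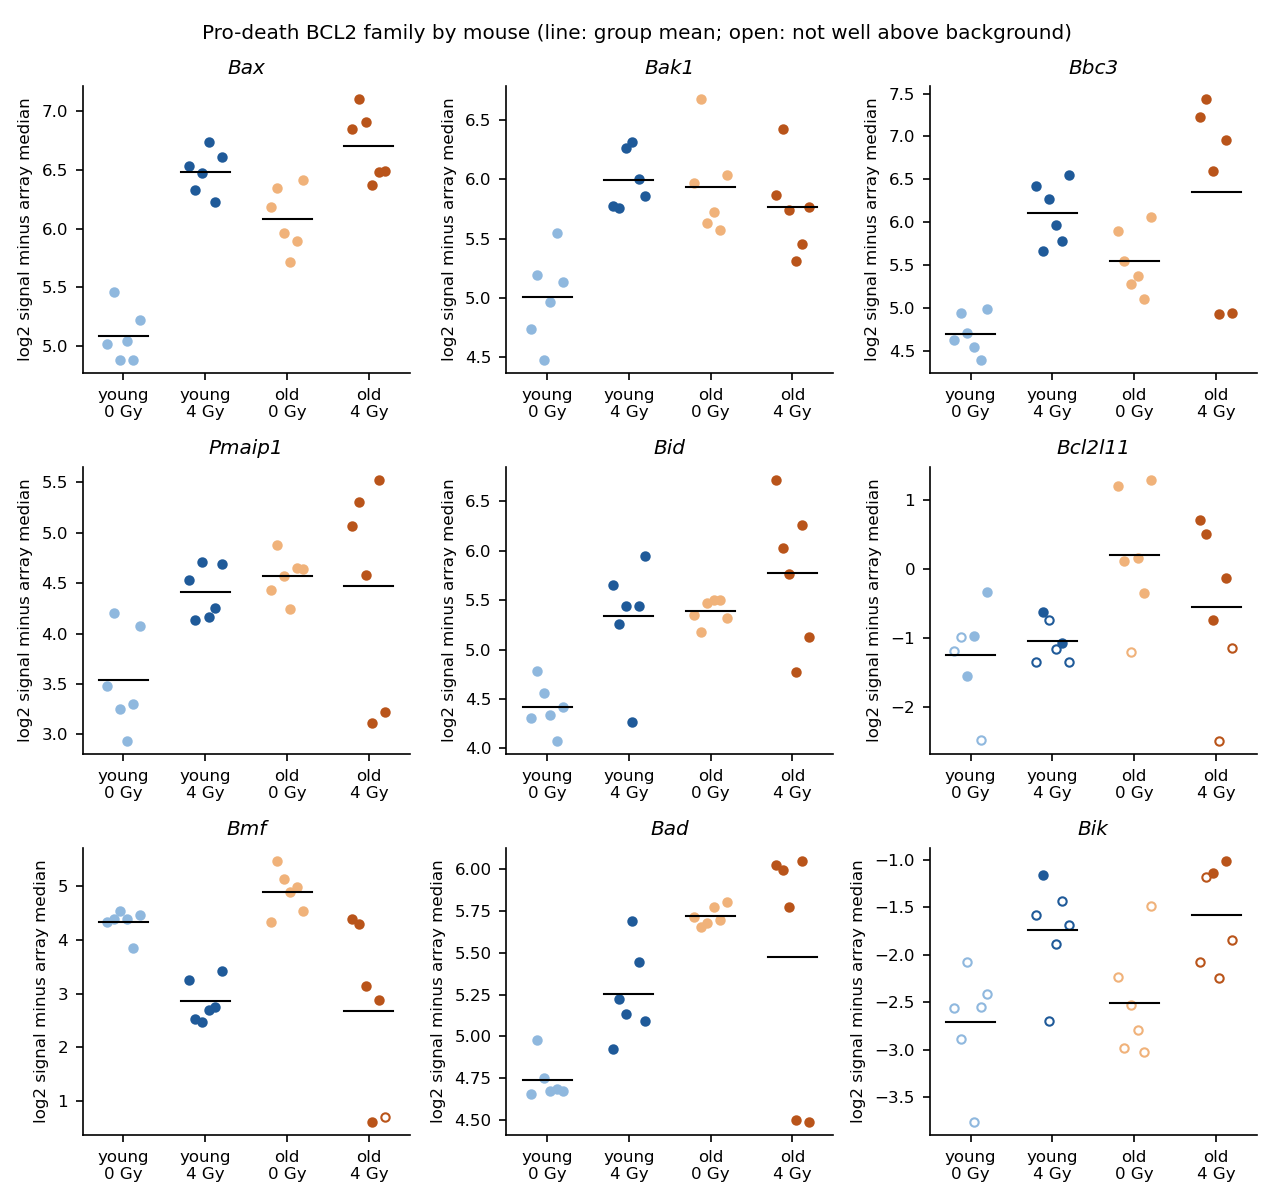
Log2 signal minus the array median (vertical axes) of the 9 members in each of the 24 mice, by group, with each group's mean as a line and open points where the probe was not well above background. Under this scaling *Bax*, *Bak1* and *Bbc3* of every young irradiated mouse lie above, and *Bmf* below, every young unirradiated mouse, directions that the 5 other scalings kept wherever the gene was tested, and 2 of the 6 old irradiated mice lie low for *Bbc3*, *Pmaip1*, *Bid*, *Bmf* and *Bad*.

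Because *Bax* and *Bbc3* moved together and *Bmf* moved against them, the 250 bases before their annotated starts, and those of *Bak1*, are given here with motif matches in capitals. The sequences are from the RefSeq annotation of GRCm38.p6, read 5′ to 3′ on the gene's strand, and motifs were sought on both strands. For *Bbc3* and *Bmf*, which have 3 listed starts each, the most upstream start was used.

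Bax promoter, chr7:45466899-45467148, minus strand: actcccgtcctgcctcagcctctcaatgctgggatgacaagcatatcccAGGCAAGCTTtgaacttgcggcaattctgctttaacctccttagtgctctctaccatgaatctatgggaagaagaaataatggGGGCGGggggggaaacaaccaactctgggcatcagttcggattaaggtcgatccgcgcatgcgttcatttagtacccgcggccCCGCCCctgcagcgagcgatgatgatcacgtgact

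Bak1 promoter, chr17:27028628-27028877, minus strand: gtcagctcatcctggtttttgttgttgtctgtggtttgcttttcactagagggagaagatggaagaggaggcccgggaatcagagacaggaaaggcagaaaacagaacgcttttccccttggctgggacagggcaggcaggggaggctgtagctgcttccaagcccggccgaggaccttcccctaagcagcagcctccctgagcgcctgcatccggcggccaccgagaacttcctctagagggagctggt

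Bbc3 promoter, chr7:16309333-16309582, plus strand: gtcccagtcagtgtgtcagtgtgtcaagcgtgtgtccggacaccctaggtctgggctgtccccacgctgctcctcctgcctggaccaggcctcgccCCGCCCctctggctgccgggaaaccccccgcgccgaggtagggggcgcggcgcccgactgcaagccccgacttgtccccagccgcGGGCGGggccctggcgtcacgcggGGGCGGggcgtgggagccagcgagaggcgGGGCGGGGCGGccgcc

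Bmf promoter, chr2:118549687-118549936, minus strand: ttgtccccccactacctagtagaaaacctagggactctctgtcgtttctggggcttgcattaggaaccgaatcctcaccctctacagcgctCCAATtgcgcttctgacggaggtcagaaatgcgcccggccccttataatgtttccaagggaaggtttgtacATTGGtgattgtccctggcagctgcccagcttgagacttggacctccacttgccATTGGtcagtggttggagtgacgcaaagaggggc

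The *Bax* window holds a match to the p53 half-site 201 bases before the start and GC boxes (GGGCGG) at 118 and 35 bases. The *Bak1* window holds none of the 3 motifs. In the *Bbc3* window there are 5 GC boxes, at 154, 69, 45, 16 and 11 bases before the start, the last pair overlapping. In the *Bmf* window there are 3 CCAAT boxes, at 159, 88 and 34 bases. Such matches are common: over 32851 windows in the genome, 7.13% held a p53 half-site, 32.7% a GC box and 33.8% a CCAAT box. Over 13 windows, which belong to 7 of the 9 members, p53 half-sites were found in 2, GC boxes in 8 and CCAAT boxes in 6. No window of *Pmaip1* or *Bik* was counted, so the counts say nothing about motifs before those genes. The p53 half-site outside *Bax* lay before another start of *Bmf*, the gene that fell. A match describes the sequence and does not show that a factor binds there.

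In young mice irradiation was followed by higher signals of both effectors and of most BH3-only genes tested, and by a lower signal of *Bmf*, directions that held under the 5 other scalings wherever a gene was tested. Of the 8 members tested, 6 were called higher, where 14.4% of all genes were, and 1 was called lower, where 21.4% were. The groups did not overlap for 4 members, where they did not overlap for 25% of all genes. The shares of members called higher and without overlap are above those of all genes, the share called lower is not, and a share near the background is not a result about the members. Because the members were chosen with earlier results of these data known, the shares above background describe them and are not a test. The median member changed by 0.90 and the median gene by -0.20.

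*Bax* rose by 1.40 (SE 0.15, adjusted p = 1.53e-05), 2.65-fold, with 6 of 6 irradiated mice above all unirradiated mice. *Bbc3* rose by 1.41 (SE 0.18, adjusted p = 7.65e-05), 2.66-fold, in 6 of 6 mice. *Bak1* rose by 0.99 (SE 0.19, adjusted p = 0.00101), 1.99-fold, in 6 of 6 mice. *Bax* and *Bbc3* thus moved by like amounts, and 91.5% of all genes had a lower change than either, against 86.4% for *Bak1*. *Bmf* fell by 1.47 (SE 0.19, adjusted p = 7.96e-05), 2.77-fold, with 6 of 6 irradiated mice below all unirradiated mice. Among the smaller rises, *Bid* changed by 0.92 (adjusted p = 0.00765, 5 of 6 mice above all unirradiated), *Pmaip1* by 0.88 (adjusted p = 0.00657, 4 of 6) and *Bad* by 0.52 (adjusted p = 0.0119, 5 of 6). On the other probe of *Bad*, A_65_P16603, the change was 0.21 (exact permutation p = 0.245), so the call of *Bad* rests on 1 probe. *Bcl2l11* changed by 0.20 (adjusted p = 0.603) and was not called.

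The calls of *Bad*, *Bid* and *Pmaip1* depended on single arrays. *Bad* kept its call only without young unirradiated replicate 2, young irradiated replicate 1 or young irradiated replicate 6, and over all single omissions its change ran from 0.43 to 0.58. *Bid* lost its call without young unirradiated replicates 1, 4 or 5 or young irradiated replicates 1, 3, 5 or 6, each left out alone, and ran from 0.80 to 1.13. *Pmaip1* lost its call without young unirradiated replicates 3 or 5 or young irradiated replicates 3 or 6 and ran from 0.75 to 1.01. The other 4 calls were kept with any single array left out: with each left out in turn *Bax* ran from 1.35 to 1.48, *Bbc3* was at least 1.32, *Bak1* ran from 0.88 to 1.10 and *Bmf* from -1.58 to -1.39. On the slide that held both treatments, 2 mice against 2, the changes were 1.38 for *Bax*, 1.36 for *Bbc3*, 0.42 for *Bak1*, 0.65 for *Pmaip1*, 1.21 for *Bid*, 0.39 for *Bad* and -1.26 for *Bmf*. With slide as a block *Bax*, *Bbc3* and *Bmf* were called and the other members were not, as in the deposited table. In 1 fit of all 24 arrays *Bax*, *Bbc3*, *Bak1* and *Bid* were called and *Bmf* was not.

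In old mice the same dose left most members without a called change, and *Bmf* was called lower, though several alternatives did not keep that call. Of the 8 members, 0 were called higher by limma, where 7.6% of all genes were, and 1 was called lower, where 17.4% were. The groups overlapped for all members (0 without overlap), where 22.7% of all genes had none. These counts are near or under the shares of all genes and are not a result about the members. The shares themselves depend on the processing: 30.4% of called genes were higher here, 54.3% with the bright probes, 52% in the deposited table and 70.9% with slide as a block. At an unadjusted p under 0.05 there were 2 members, *Bax* and *Bmf*, and limma with an intensity trend and the random variance test each called 1 member.

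*Bmf* fell by 2.22 (SE 0.63, adjusted p = 0.0163), 4.65-fold, with 5 of 6 irradiated mice below all unirradiated mice. That call was kept only without old unirradiated replicate 1, old irradiated replicate 1 or old irradiated replicate 2, and over all single omissions the change ran from -2.56 to -1.80. On the slide with both treatments it was -0.42, and the fit with slide as a block did not call it. Slide cannot be told apart from the mice on it, since replicates 4 and 6 share a slide. The call was also lost with the 75th percentile (-1.92), quantile normalization (-1.99), the bright probes (-1.87), the deposited table (-2.01) and averaged pairs of similar arrays (-1.90), and kept with normexp (-1.21), the sign being negative in each. *Bax* changed by 0.62 (SE 0.23, adjusted p = 0.0517), with 5 of 6 irradiated mice above all unirradiated mice, and missed limma's threshold, while the exact permutation test gave p = 0.00433, and 0.0154 after adjustment over the genes without missing values, for *Bax* as for *Bmf*. It was called higher with the 75th percentile (0.92), with the bright probes (0.96) and in 1 fit of all 24 arrays (0.62), and not under the other scalings or with slide as a block. On the mixed slide, which holds neither replicate 4 nor 6, it changed by 0.82. *Bbc3* changed by 0.80 with an SE of 0.46 (adjusted p = 0.19), 4 mice lying above and 2 below all unirradiated mice. The remaining changes were 0.39 for *Bid*, -0.10 for *Pmaip1*, -0.17 for *Bak1*, -0.25 for *Bad* and -0.75 for *Bcl2l11*, all short of the threshold. On the mixed slide, 2 mice against 2, every tested member but *Bmf* was positive: 1.75 for *Bbc3*, 0.96 for *Bid*, 0.54 for *Pmaip1*, 0.34 for *Bak1*, 0.26 for *Bad* and 0.14 for *Bcl2l11*. The sign of *Bak1* turned positive under 2 other scalings (0.13 with the 75th percentile, 0.17 with the bright probes) and that of *Pmaip1* under all 5 (0.15 to 0.25).

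Old irradiated replicates 4 and 6 decided much of this. Without them, an alternative chosen after seeing the data, 4 members were called: *Bbc3* at 1.51, *Bid* at 0.80 and *Bax* at 0.75 higher, and *Bmf* at -1.21 lower, where 2075 of all 17462 genes were called higher and 3981 lower. In the full set the within-group SD of the median member was 0.91 for old irradiated mice, against 0.24, 0.29 and 0.32 in the young unirradiated, young irradiated and old unirradiated groups. The median SD of all genes was likewise 0.87, against 0.30, 0.47 and 0.36. Leaving out old irradiated replicates 2, 3 and 5 instead, the mice with the highest hepatocyte marker signal, *Bmf* was the called member, at -2.99, and no other was called. In that subset 2794 of all 17462 genes were called higher and 4274 lower, so this count is not a result about the members. The arrays of replicates 4 and 6 are thus needed for the low values of *Bbc3*, *Bid* and *Bad* in old irradiated mice, and why they stood apart was not tested.

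The difference between the responses of old and young mice was tested directly. Of the 8 members 0 passed limma's interaction test, where 0% of all genes did, so the share equals the background. The trend and random variance versions also called 0 members, and 3 members had an unadjusted p under 0.05, as did 4113 of the 17462 genes. All 8 estimates were negative, from -0.53 for *Bid* to -1.16 for *Bak1* (SE 0.32, adjusted p = 0.111), and their median was -0.77, where that of all genes was -0.24. Under the other 5 scalings each tested member stayed negative, with medians from -0.57 to -0.38, while the median of all genes turned positive under 4 of them. The estimates depended on which mice were kept: without old irradiated replicate 3 *Bak1* was called at -1.16, without old irradiated replicates 2, 3 and 5 the 4 members *Bad*, *Bak1*, *Bax* and *Pmaip1* were called lower where 3272 of all 17462 genes were called lower, and without replicates 4 and 6 none was called and the median was -0.30. For *Bmf* a negative estimate stands for a larger fall in old mice (-2.22 against -1.47), for *Bax*, *Bbc3* and *Bid* for a smaller positive change, and for *Bak1*, *Pmaip1*, *Bad* and *Bcl2l11* for an uncalled negative change in old mice. With all 24 arrays under the scaling used, a difference between the ages was not shown for any member.

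**Figure D2:**
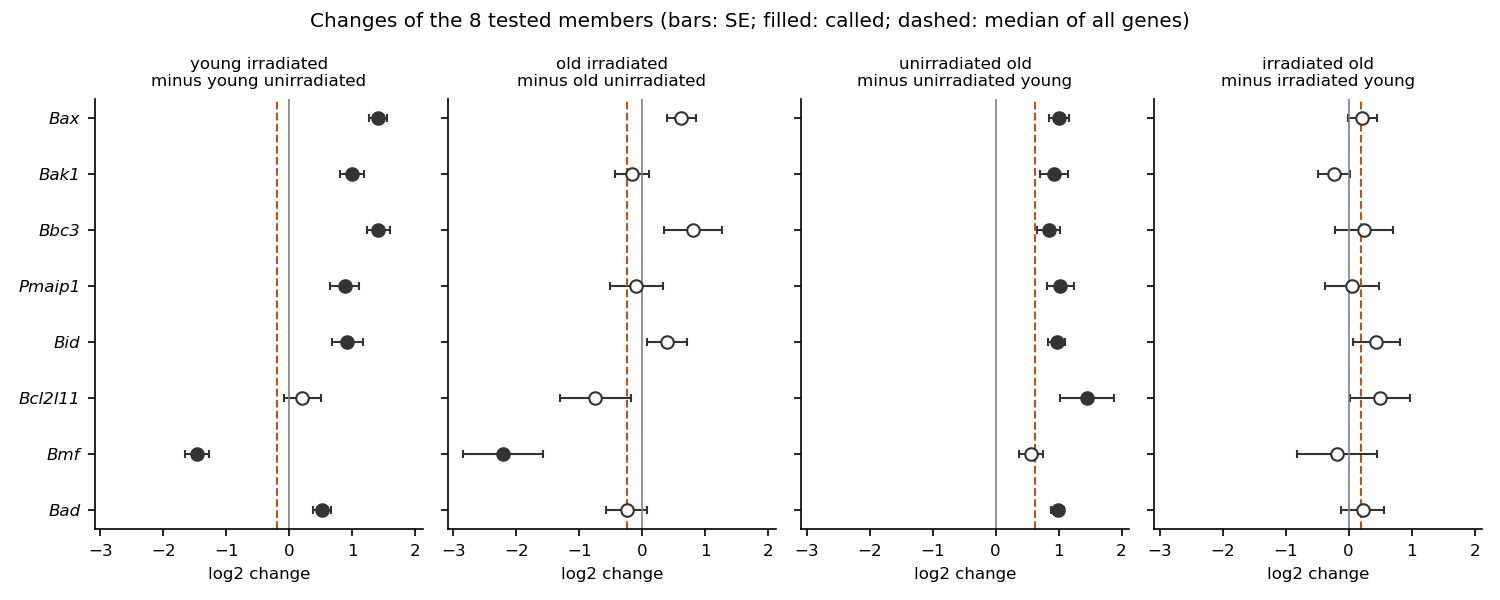
Log2 change (horizontal axis) of the 8 tested members in the 4 comparisons, with bars of 1 SE, filled points for called members and a dashed line at the median of all genes. Irradiation in young mice and age in unirradiated mice have 7 called members each, but in the age comparison the line of all genes itself lies at 0.63 under this scaling and moves to -0.11 to 0.11 under the 5 others, where *Bmf* turns negative under 4.

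In unirradiated mice the members had higher signals at 21 months than at 2 months when each array was set to its own median, and under 4 of the 5 other scalings *Bmf* turned lower. Of the 8 members, 7 were called higher, where 48.3% of all genes were, and 0 were called lower by limma, where 15.5% were, with 8 members at an unadjusted p under 0.05, all of them higher. The groups did not overlap for 6 members, where they did not for 48.6% of all genes. The members' shares are above those of all genes, but much of their shift was shared by all genes. The limit set by how the members were chosen holds here too. The median member differed by 0.98 and the median gene by 0.63.

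*Bax* differed 2.00-fold (log2 SE 0.16, adjusted p = 0.000105) and *Bad* by 0.99 on the log2 scale (SE 0.11, adjusted p = 9.95e-06), each with 6 of 6 old mice above all young mice. The differences of *Pmaip1*, *Bid*, *Bak1* and *Bbc3* were 1.03, 0.97, 0.93 and 0.85, in 6 of 6 mice each. Relative to the median of all genes these became 0.38 for *Bax*, 0.36 for *Bad*, 0.40 for *Pmaip1*, 0.35 for *Bid*, 0.30 for *Bak1* and 0.22 for *Bbc3*. *Bcl2l11* differed by 1.45 (SE 0.43, adjusted p = 0.00713, 4 of 6 mice above all young mice), but kept its call only without young unirradiated replicate 6, old unirradiated replicate 3 or old unirradiated replicate 5, and ran from 1.21 to 1.73 over single omissions. *Bmf* differed by 0.56 (adjusted p = 0.0158), was called without old unirradiated replicate 1 (0.68), and lay at -0.06 relative to all genes. Under the 75th percentile 2 members were called (*Bax* and *Bid*), under quantile normalization 1 (*Bcl2l11*), and under the bright-probe median, normexp (followed by quantile normalization) and the deposited table none. At the same time the share of all called genes that were higher went from 75.6% to 27.9%, 42.5%, 20.7%, 31.6% and 17.2%. All tested members but *Bmf* kept a positive sign under the 5 other scalings, and *Bmf* turned negative under 4 of them.

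After irradiation the members did not separate the ages. Of the 8 members limma called 0, where 1.4% of all genes were called higher and 0.601% lower, and 0 members were without overlap, where 5.07% of all genes were. Counts of 0 beside such shares are no result about the members. At an unadjusted p under 0.05 there were 0 of the 8 members and 3736 of the 17462 genes, and the trend and random variance tests called 0 members. Differences ran from -0.24 for *Bak1* to 0.50 for *Bcl2l11*, with a median of 0.22 beside 0.20 for all genes, and those of *Bax*, *Bbc3* and *Pmaip1* turned negative under other scalings. Without old irradiated replicates 4 and 6 the 3 genes *Bbc3* (0.94), *Bad* (0.71) and *Bcl2l11* (1.13) were called higher in old mice, where 3542 of all 17462 genes were called higher. The 4 comparisons share their groups and are set side by side for that reason, not as independent results.

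**Figure D3:**
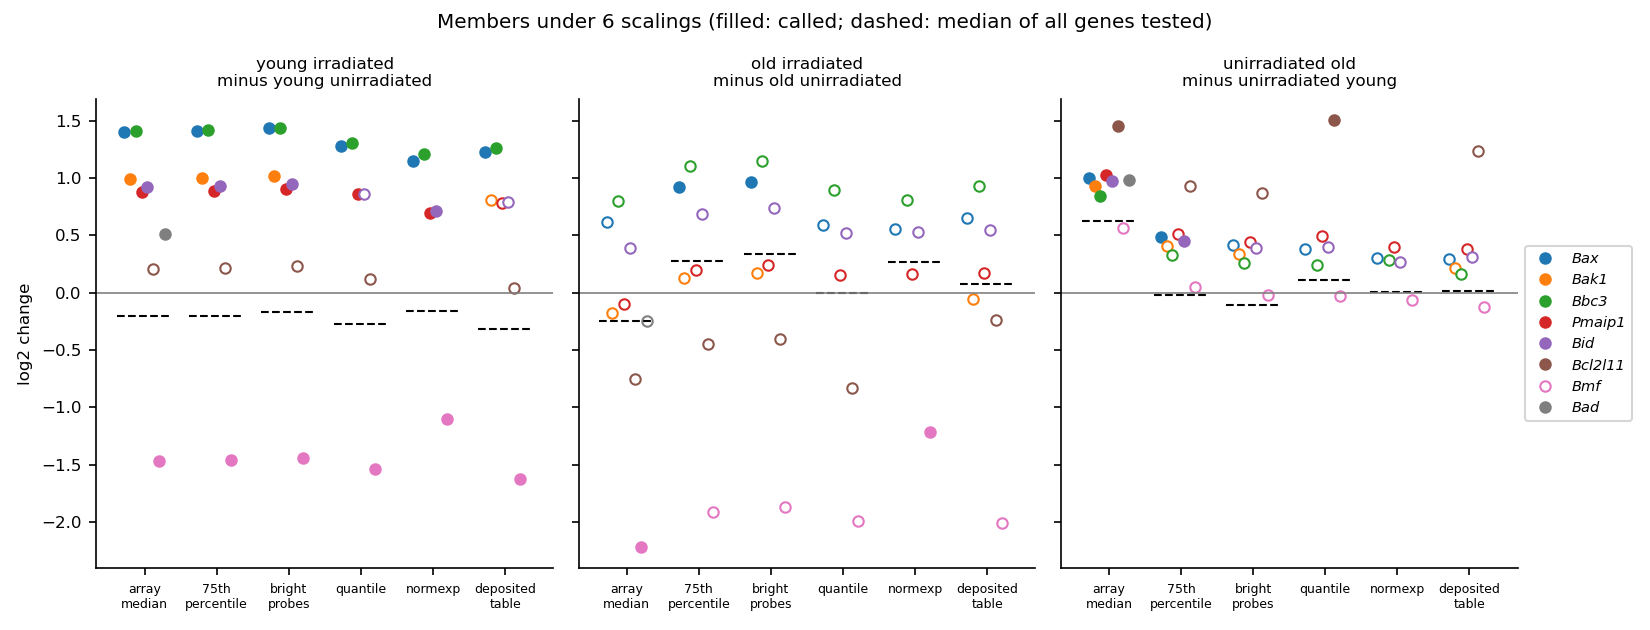
Log2 change (vertical axis) of the members under 6 scalings of the arrays, for irradiation in young mice, irradiation in old mice and age in unirradiated mice, with filled points for called members and a dashed mark at the median of all genes. In young mice the tested members keep their sign throughout and their median stays 0.88 to 1.13 above that of all genes, whereas in old mice *Bak1* and *Pmaip1* change sign and in the age comparison *Bmf* does and the calls go from 7 to 0.

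Differences between genes measured on the same array do not depend on how arrays are scaled by a single factor, and 4 such pairs of a pro-death and a survival gene were compared. The level of a difference between probes has no meaning of its own, and only its shift between groups is read. A shift shows that the genes changed unequally, not that either stayed the same. *Bax* minus *Bcl2* had lowest, median and highest values of 0.33, 0.61 and 0.70 in young unirradiated and 1.51, 2.38 and 3.16 in young irradiated mice. In old mice they were -0.62, 0.40 and 0.95 without irradiation and 1.33, 1.73 and 2.39 after it. At both ages the ranges lay fully apart, and old irradiated replicates 4 and 6 lay high with the rest. The mean shifted by 1.73 in young mice, 3.31-fold, and by 1.54 in old mice, 2.90-fold. The change of *Bcl2* itself was -0.32 at the young age and -0.92 at the old age (adjusted p = 0.0807), neither called, and how the shift divides between *Bax* and *Bcl2* depends on the scaling. Each had an exact permutation p of 0.00216, the smallest that 6 mice against 6 can give, and 0.00866 after adjustment over the 16 tests of pairs. On the mixed slides the shifts were 1.56 and 1.39.

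The pairs with *Mcl1* separated young mice only. *Bak1* minus *Mcl1* ran from -3.98 to -2.64 in young unirradiated and from -2.41 to -2.11 in young irradiated mice, a shift of 1.24 (2.36-fold, adjusted exact p = 0.00866) that was 0.85 on the mixed slide. That call was lost in the deposited table (0.96) and with averaged pairs of similar arrays (1.24). In old mice *Bak1* minus *Mcl1* shifted by 0.30 (adjusted exact p = 0.69) and by -0.33 on the mixed slide. *Pmaip1* minus *Mcl1* ran from -5.60 to -4.53 in young unirradiated and from -4.36 to -3.58 in young irradiated mice, a shift of 1.13 (2.18-fold, adjusted exact p = 0.00866), with 1.07 on the mixed slide. In old mice it shifted by 0.37 (adjusted exact p = 0.247), with -0.13 on the mixed slide, and passed the threshold without old irradiated replicate 1 (0.52). Whether these shifts differ between the ages was not tested. Between irradiated mice of the 2 ages *Pmaip1* minus *Mcl1* was lower in old mice by a mean of -0.55 (adjusted exact p = 0.0485), a call that single omissions kept only without young irradiated replicate 4, old irradiated replicate 5 or old irradiated replicate 6, with a range of -0.66 to -0.40. It was also kept in the deposited table (-0.86) and with the mean of probes (-0.75). Quantile normalization (-0.44), normexp (-0.33), averaged pairs of similar arrays (-0.54) and each set of mice left out together lost it. *Bak1* minus *Mcl1*, at -0.84 in that comparison, passed without old irradiated replicate 6 (-1.15) and without old irradiated replicates 4 and 6 (-1.49). *Bcl2l11* minus *Bcl2* passed in no comparison, its shifts running from -0.22 to 0.53 with a smallest adjusted exact p of 0.479.

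**Figure D4:**
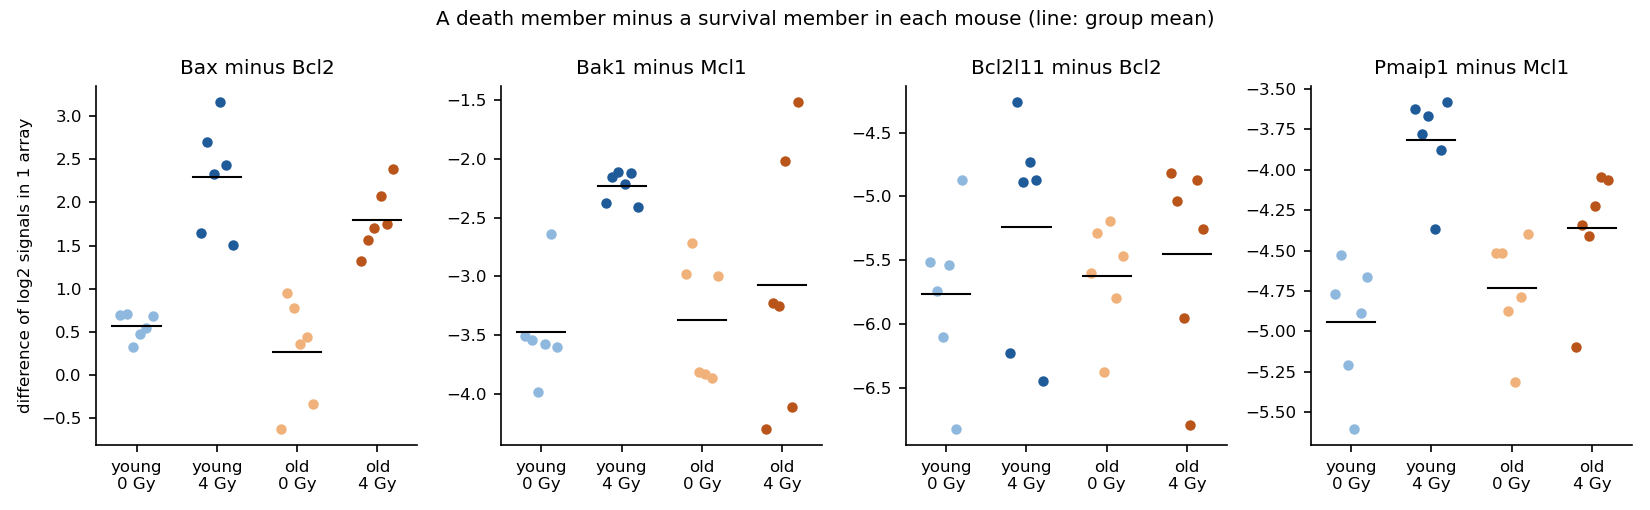
Difference in log2 signal between a pro-death and a survival gene on the same array (vertical axes) for 4 pairs in each of the 24 mice, with group means as lines. *Bax* minus *Bcl2* lies higher in every irradiated than in every unirradiated mouse at both ages, and the pairs with *Mcl1* do so at the young age.

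Lists of related genes were described by counts and medians, beside those of all genes. Of the survival genes, 5 of 8 were tested. In young mice 1 rose after irradiation (*Bcl2l2*, 0.80) and 1 fell (*Bcl2l1*, -1.26), with a list median of -0.25 beside -0.20 for all genes. In old mice limma called 0 of them, with 1 at an unadjusted p under 0.05, and *Bcl2l1* and *Mcl1*, the genes of the list with the highest signals, changed by -0.19 and -0.47, and without old irradiated replicates 4 and 6 it again called 0, with 1 at an unadjusted p under 0.05. In unirradiated mice 3 were higher at the old age: *Bcl2* (1.31), *Bcl2l2* (0.97) and *Mcl1* (0.82), with a list median of 0.82 beside 0.63. The list medians of the survival genes thus lay near those of all genes after irradiation in young mice and with age. Of other family members, 6 of 8 were tested. *Bnip3l* (-1.44) and *Bcl2l12* (-0.82) fell after irradiation in young mice and *Bcl2l12* (-1.19) in old mice. The list medians were -0.57 in young mice beside -0.20 for all genes and -0.39 in old mice beside -0.25. *Bcl2l14* (1.17, well above background on 14 of 24 arrays) and *Bnip3* (0.68) were higher with age in unirradiated mice, with a list median of 0.55 beside 0.63. *Bcl2l15* was called higher with age in irradiated mice, but it was well above background on 6 of 24 arrays and no size is given.

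Of a list of 10 genes around the apoptosome and caspases, 8 were tested. *Vdac2*, *Xiap*, *Diablo* and *Htra2* are in that list but are not apoptosome or caspase genes. Its counts are therefore not counts of genes that carry out death. After irradiation 1 was called higher in young mice (3 at an unadjusted p under 0.05, list median 0.19 beside -0.20 for all genes). In old mice limma called 0, with 4 at an unadjusted p under 0.05 and a list median of -0.39 beside -0.25. The mean of the list was 3.58 and 3.44 in old irradiated replicates 4 and 6 and 4.66 to 4.80 in the other 4, beside 4.52 to 4.76 in old unirradiated mice, and without those replicates 1 was called higher and the list median was 0.0999 beside -0.30. With age in unirradiated mice 7 were higher, the largest differences being *Xiap* (1.02), *Apaf1* (0.98), *Vdac2* (0.88), *Casp9* (0.86) and *Casp6* (0.83), around a list median of 0.86. Beside this stand 48.3% of all genes called higher and a median of 0.63 over all genes, which lay between -0.11 and 0.11 under the 5 other scalings, so counts of genes higher with age rest on the scaling. Of 15 further p53 targets, 12 were tested. In young mice 9 rose, led by *Cdkn1a* (5.06), *Phlda3* (3.24), *Ccng1* (1.87), *Ei24* (1.72) and *Zmat3* (1.48), and in old mice 6 rose, led by *Cdkn1a* (3.96), *Phlda3* (2.15), *Ccng1* (1.94), *Mdm2* (1.33) and *Ei24* (1.12). List medians were 1.37 in young mice beside -0.20 for all genes and 0.89 in old mice beside -0.25. The genes with the largest rises were thus largely the same at both ages. In unirradiated old mice 9 were higher than in young mice, led by *Perp* (1.51), *Phlda3* (1.46), *Fas* (1.41), *Ei24* (1.28) and *Zmat3* (1.18), with a list median of 1.07 beside 0.63 and the same limit of scaling. Without old irradiated replicates 4 and 6, 9 p53 targets rose in old mice (list median 1.06 beside -0.30).

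Of 7 genes that encode regulators of BH3-only genes, 6 were tested. After irradiation in young mice *Trp53* (-1.19) and *Foxo3* (-1.14) fell and *Jun* (0.81) and *Atf4* (0.72) rose, and in old mice *Trp53* fell (-1.82). With age in unirradiated mice *Jun* (1.42), *Ddit3* (1.12), *Atf4* (1.04) and *Trp53* (0.81) were higher and *Trp73* (-2.25) was lower. The list medians in these comparisons were 0.24, 0.48 and 0.93, beside -0.20, -0.25 and 0.63 for all genes. The 0.48 rests on old irradiated replicates 4 and 6, which had the highest scores of their group (4.67 and 4.81). Without them it was 0.0338 beside -0.30, with *Trp53* still called lower. After irradiation *Trp53* was called lower at both ages. Of the 12 p53 targets tested, 9 were called higher in young and 6 in old mice, 0 were called lower, and the rest were not called. In irradiated mice of the 2 ages limma called 0 of the 6, with 2 at an unadjusted p under 0.05, and 0 of the 12 p53 targets, with 6. Without old irradiated replicates 4 and 6 limma called 2 regulators higher and 1 lower and 6 p53 targets higher in that comparison.

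Marker lists follow genes typical of each type of blood cell and do not count cells, and their part in the result was not tested. Each list's score is the mean of its genes on an array. For B cells, with 7 of 7 genes tested and *Cd79b* the most abundant, scores ran from 5.61 to 6.15 in young unirradiated, 3.04 to 4.13 in young irradiated, 6.00 to 6.97 in old unirradiated and at most 4.79 in old irradiated mice. Irradiated mice of each age thus lay far below the unirradiated mice. All 7 genes fell in young mice, led by *Cd79a* (-2.83) and *Cd79b* (-2.68), and 6 in old mice, led by *Cd79a* (-4.13). *Blk* and *Pax5* were well above background on 17 and 20 of the 24 arrays. For T cells (7 genes, *Lck* most abundant) the ranges were 6.00 to 6.62, 4.33 to 5.97, 5.92 to 7.57 and 5.52 to 6.73 in the same order. Of these, 5 genes fell in young mice, led by *Cd8a* (-2.84), which was higher in old than in young irradiated mice (2.91), and limma called 0 in old mice, with 1 at an unadjusted p under 0.05. NK markers (5 genes, *Nkg7* most abundant) ran from 3.41 to 4.64, 3.89 to 5.86, 3.76 to 5.30 and 4.42 to 5.44, with *Ncr1* (1.75) and *Klrb1c* (1.61) called higher after irradiation in young mice. In old mice *Ncr1* changed by a like amount, 1.74 (adjusted p = 0.0391), short of the threshold for p.

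After irradiation some neutrophil genes rose in young mice, and the platelet genes rose at both ages. Neutrophil scores (7 genes, *S100a9* most abundant) ran from 4.62 to 5.43 in young unirradiated, 5.43 to 6.58 in young irradiated, 6.20 to 7.56 in old unirradiated and 5.71 to 8.59 in old irradiated mice, and 4 genes rose with irradiation in young mice (*Cxcr2* 1.92, *S100a8* 1.67, *S100a9* 1.64 and *Ly6g* 0.71), while limma called 0 of 7 in old mice, with 0 at an unadjusted p under 0.05. Platelet scores (5 genes, *Pf4* most abundant) ran from 8.10 to 8.90, 9.25 to 10.98, 9.20 to 10.11 and 10.86 to 11.64, and all 5 genes rose with irradiation at both ages, led by *Gp1ba* (2.17) in young and *Gp9* (1.95) in old mice. Among the lists of blood cells, platelets were thus alone in having genes called higher at both ages with all arrays. Without old irradiated replicates 4 and 6, limma called 5 platelet genes, 1 neutrophil gene and 1 NK gene higher and 7 B cell genes lower in old mice, and 0 T cell genes with 2 at an unadjusted p under 0.05. Monocyte scores (5 of 6 genes, *Csf1r* most abundant) ran from 4.05 to 4.76, 5.14 to 5.43, 5.29 to 6.19 and 2.35 to 5.84, where old irradiated replicates 4 and 6 had 2.35 and 2.68 and the other 4 at least 5.12. In young mice *Cd14* (3.15) and *Fcgr1* (1.12) rose and *Cx3cr1* (-1.14) fell, with a list median of 0.52, and in old mice *Cx3cr1* (-2.22) and *Ccr2* (-2.20) fell, with a list median of -1.85 that was -0.77 without replicates 4 and 6. Erythroid scores (5 of 6 genes, *Hba-a1* most abundant) ran from 10.76 to 13.05, 9.30 to 10.93, 10.75 to 12.13 and 9.18 to 13.20, where the same replicates had 13.18 and 13.20 and the other 4 at most 10.20. The 13.05, of young unirradiated replicate 1, lies above the mean of the 5 genes' highest signals in its group. That score therefore does not cover all 5 genes, and the next highest mouse of the group had 11.42. Of these genes 2 are globins, whose RNA was depleted before labelling per the methods, so the scores depend on that step, and *Slc4a1* (-2.45) fell in young mice. The mice with low *Bbc3*, *Pmaip1*, *Bid*, *Bmf* and *Bad* in the old irradiated group are therefore also those with the lowest monocyte, neutrophil and NK scores and the highest erythroid and T cell scores of their group.

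Hepatocyte genes, which blood cells do not make in quantity, varied by mouse. Of 8 listed, 5 were tested: *Serpina1a*, the most abundant, *Ambp*, *Apoh*, *Fgb* and *Cyp2e1*. The untested *Alb*, *Ttr* and *Apoa1* were well above background on 14, 12 and 9 of the 24 arrays. Scores for replicates 1 to 6 were -0.60, -0.05, 4.15, 2.68, 6.57 and 1.60 in young unirradiated and 1.13, 9.45, 0.40, 10.60, 9.67 and 1.18 in young irradiated mice. In old mice they were -1.50, -1.10, -0.64, -0.77, -1.28 and -1.33 without irradiation and 0.14, 9.13, 9.63, 3.52, 10.02 and 3.09 after it. The signal was highest in young irradiated replicates 2, 4 and 5 and old irradiated replicates 2, 3 and 5 and lay under 0 in every old unirradiated mouse. After irradiation in old mice 5 of the 5 tested genes were called higher, with and without replicates 4 and 6. No size is given there, because the list median falls on *Apoh*. Its old unirradiated signals, -2.55 to -1.11, were not well above background. With age in unirradiated mice 3 were called lower (list median -2.58 beside 0.63 for all genes). In young mice limma called 0 after irradiation, with 1 at an unadjusted p under 0.05 (list median 3.01). Without young irradiated replicates 2, 4 and 5, an alternative chosen after seeing the data, *Bad* lost its call in young mice (0.32) and the other 6 called members kept theirs.

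**Figure D5:**
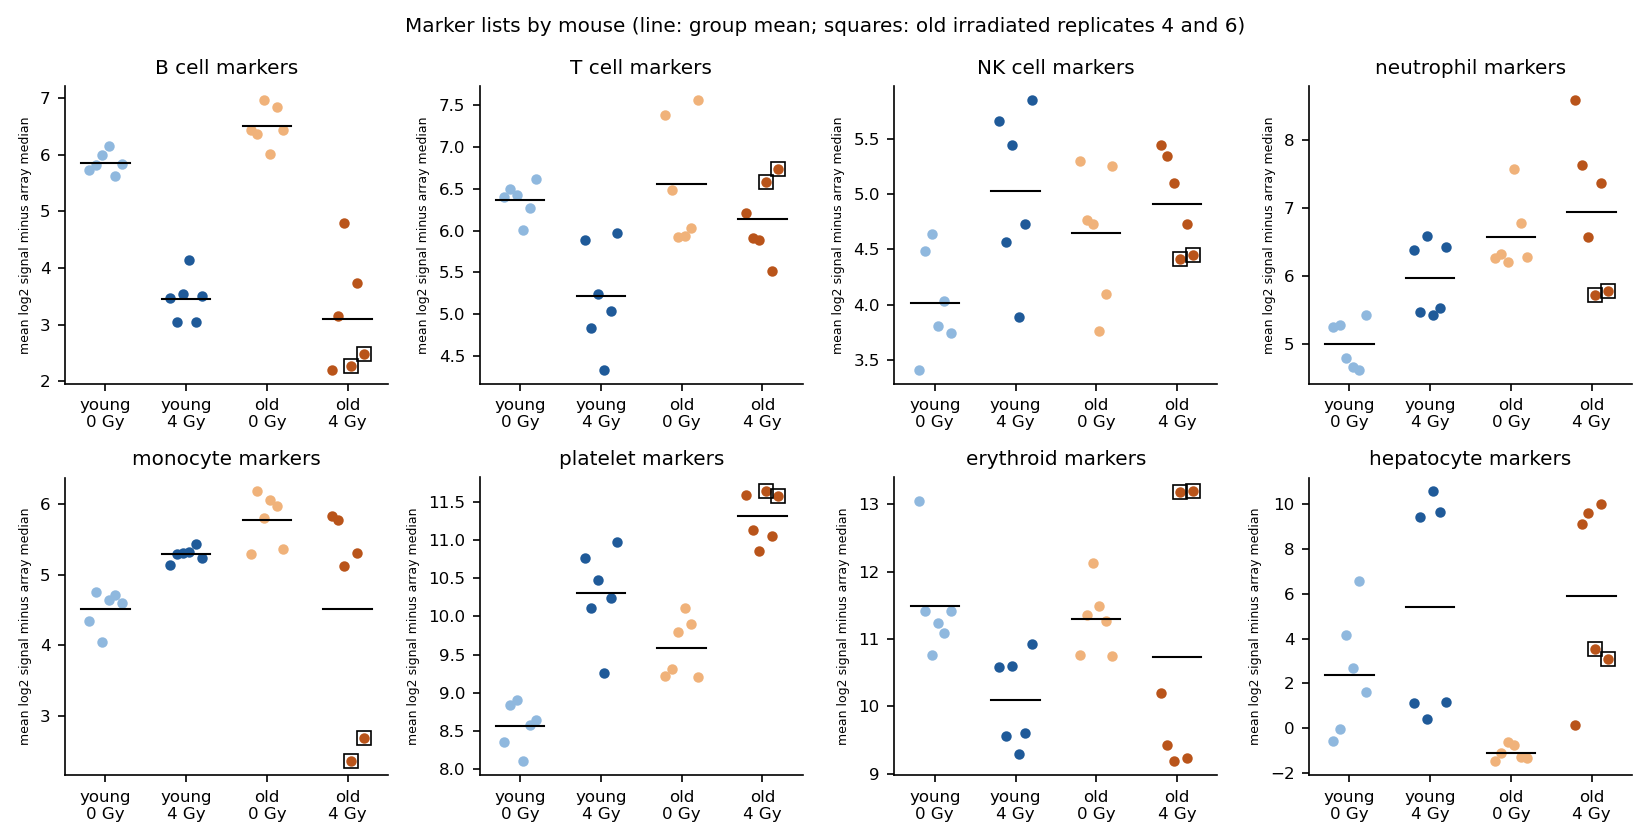
Mean log2 signal minus the array median (vertical axes) of 8 marker lists in each of the 24 mice, by group, with group means as lines and old irradiated replicates 4 and 6 as squares. B cell scores are lower in every irradiated mouse than in any unirradiated mouse of its age, and the squares lie lowest for monocyte and highest for erythroid genes in their group.

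Over all 24 arrays the genes whose signal followed a member most closely, by root mean square difference after centring, were *Tmem250-ps* (0.198), *Ap1s1* (0.243) and *Vdac1* (0.244) for *Bax*, *9330133O14Rik* (0.232), *Sympk* (0.261) and *Cyba* (0.319) for *Bak1*, and *Cd44* (0.281), *Irgm2* (0.282) and *Mid1ip1* (0.29) for *Bbc3*. Of the members themselves, *Pmaip1* and *Bad* were most alike (0.385), then *Bax* and *Bak1* (0.429), and *Bax* and *Bmf* were least alike (1.61). The distance between the effectors was larger than that from *Bax* to its closest genes. Those genes were picked as the nearest of all tested genes, so this order was nearly fixed in advance and is not a result.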

How the data were processed

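Blood RNA of 24 mice was measured on 24 one-colour Agilent arrays. Per the file headers, spot signals are background-subtracted intensity values, not scaled between arrays. A deposited table from the authors holds log2 values, with its normalization not stated beside it. The members and gene lists were chosen with earlier results of these data known. Controls were removed and repeat spots averaged, each array's median log2 signal was set to 0, probes that failed (non-uniform, or signal not significant) on 25% of arrays or more were dropped, the probe with the highest signal stood for its gene, and genes 1.5-fold from their median on fewer than 5 arrays were left out (17462 tested). Groups of 6 were compared with limma 3.58.1 in R 4.3.3, and pairs of genes with exact two-sided permutation tests. The method was tested on simulated data. Alternatives covered scaling, filters, probe choice, slide and replicate blocks, each array left out, and sets of arrays chosen after seeing the data. The rule for naming took all members and, per list and comparison, up to 5 called genes by size, else those with the highest signal, and not every gene it picks is printed. Per-group supplement columns of the authors were not used.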

Additional observations from a re-analysis of the deposited data

Results flagged for a closer look

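Chance singles out about 1 in 20 groups of 6, and 5 of 84 groups held a sample far from the rest, close to that share. The rule measures the gap from the outermost sample to its nearest neighbour. Samples that lie far out together, such as old irradiated replicates 4 and 6, are therefore not flagged. The groups also share mice and genes, so the count does not show that outlying samples are rare. Young unirradiated replicate 5 had the lowest *Bmf* signal of its group, 3.85, with the nearest mouse at 4.34. Young unirradiated replicate 2 had the highest *Bad* signal, 4.98, with the nearest at 4.75. Young unirradiated replicate 5 also had the highest *Bak1* minus *Mcl1*, -2.64, with the nearest at -3.51. Old irradiated replicate 1 had the lowest *Pmaip1* minus *Mcl1*, -5.10, with the nearest at -4.41. The erythroid score of young unirradiated replicate 1 was 13.05, with the nearest at 11.42, but that score does not cover all genes of its list. The cause of these values was not tested.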

How the results depend on the processing

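The 7 calls of members after irradiation in young mice became 4 under quantile normalization, 3 in the deposited table, 4 with 1 variance fitted to all 24 arrays and 3 with slide as a block, and 4 to 7 with each array left out. The 1 call in old mice became 0 under quantile normalization, in the deposited table, with slide as a block and with very similar pairs of arrays averaged, and 2 with all arrays in 1 fit. Under the 75th percentile and under the bright-probe median it was again 1, but *Bax* higher in place of *Bmf* lower, and without old irradiated replicates 4 and 6 it was 4, mostly higher, and single omissions gave 0 to 1. For age in unirradiated mice the 7 calls became 2 with the 75th percentile, 1 with quantile normalization and 0 with the bright probes, normexp and the deposited table, and 6 to 7 with each array left out. For age in irradiated mice 0 became 3 without old irradiated replicates 4 and 6 (0 to 0 over single omissions), and for the interaction 0 became 4 without old irradiated replicates 2, 3 and 5 (0 to 1). Other alternatives stayed within 1.5 times the count of calls. Fewer members were tested under the other scalings, and otherwise the cause was not tested. With the replicate number as a block, although the numbers do not pair the mice (0, 2, 1, 1, 1 and 3 of 6 matched best), 6, 1, 7, 0 and 0 members were called in the 5 comparisons.

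*Bax* minus *Bcl2* kept its calls at both ages under every alternative run, with 1.55 to 1.88 in young and 1.36 to 1.67 in old mice over single omissions. *Bak1* minus *Mcl1* in young mice lost its call in the deposited table (0.96) and with averaged pairs (1.24) and ran from 1.14 to 1.41 over single omissions. It changed sign, uncalled, for age in unirradiated mice in the deposited table (-0.34) and with the mean of probes (-0.12), and for irradiation in old mice without old irradiated replicates 4 and 6 (-0.35), and was called for age in irradiated mice without those replicates (-1.49). Its single omissions gave -0.0242 to 0.27, -0.0129 to 0.54 and -1.15 to -0.59 there. *Pmaip1* minus *Mcl1* between irradiated mice lost its call under quantile normalization (-0.44), normexp (-0.33), without old irradiated replicates 2, 3 and 5 (-0.65), without young irradiated replicates 2, 4 and 5 (-0.74), without old irradiated replicates 4 and 6 (-0.66) and with averaged pairs (-0.54), and was called in 3 of 12 single omissions (-0.66 to -0.40), in the deposited table (-0.86) and with the mean of probes (-0.75). In unirradiated mice it was -0.17 in the deposited table and -0.0152 with the mean of probes, and in old mice single omissions gave 0.25 to 0.52. *Bcl2l11* minus *Bcl2*, never called, moved to -0.0894 (old, quantile), 0.15 (irradiated, quantile), -0.42 (unirradiated, normexp), 0.47 (irradiated, deposited), -0.0898 (young) and 0.40 (irradiated) without young irradiated replicates 2, 4 and 5, and 0.0691 (irradiated) without old irradiated replicates 4 and 6, with single omissions of -0.0673 to 0.32 in unirradiated and -0.46 to 0.0516 in irradiated mice.

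Of the members' changes under alternatives other than single omissions, 561 were kept, 50 lost and 15 gained a call, and 49 moved. Where a test was run, kept means the same direction and call, and moved means that an uncalled value changed sign. On the mixed slides no test was run. There a value was kept if it had the same sign and lay within the within-group SD of the main change. Otherwise it moved, and called changes are among these, such as that of *Bmf* in old mice. Over all genes, called counts in young mice, 6252, became 3325 with normexp (53% of the 6275 genes tested there, against 35.8% of 17462), 3748 in the deposited table, 3964 in 1 fit and 1811 with slide as a block. In old mice 4363 (25%) became 2023 with normexp (32.2%), 2845 in the deposited table, 7068 without replicates 2, 3 and 5, 2841 with averaged pairs and 501 with slide as a block. For age in unirradiated mice 11142 became 5596 (75th percentile), 5667 (quantile), 5328 (bright probes), 2364 (normexp), 4448 (deposited) and 6061 (1 fit). For age in irradiated mice 350 became 114, 170, 193, 30 and 44 in the same order, 121 with no filter, 2523 in 1 fit, 2 with the replicate block, 1341 with slide as a block, 7 with averaged pairs, and 1854, 23 and 4978 in the subsets of mice. The interaction, 0 by limma with 4113 at an unadjusted p under 0.05, gave 8, 7, 8 and 24 under the first 4 scalings, 2 with the mean of probes, 32 with slide as a block, and 5961, 0 and 26 in the subsets. Signal limits the rest: between 43.9% and 64.4% of probes were well above background on an array, *Bik* on too few to test, and *Bcl2l11* on 14 of 24.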
